A study of Homo sapiens with 3 samples.

Results

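The DNA methylation of the parental Hep3B line was read CpG by CpG in 1 bisulfite capture library. Members were the autosomal CpGs with at least 10 reads after the counts of both strands were summed, and 2462465 of the 3093792 autosomal CpGs with any read (79.6%) met that rule. Hep3B is an aneuploid cell line from a human hepatocellular carcinoma, and the parental cells carried no knockout. They are the control of a study of SOX4, a transcription factor, whose 3 libraries also include lines with SOX4 knocked out, and those lines were not used here. DNA was captured with a probe set aimed at promoters, enhancers and other regulatory DNA, so the values describe those regions and not the whole genome. With 1 library there was no replicate and no test. The 95% intervals (Clopper-Pearson, exact) take in the error of counting and nothing else, since PCR copies of 1 molecule could not be told from separate molecules. A read that covers several CpGs was counted at each of them, so pooled counts are not independent and their intervals are too narrow.

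In mammalian DNA, methylation sits almost wholly on cytosines that are followed by guanine (CpG). Most of the genome is poor in CpGs and methylated, while CpG-dense stretches, many of them at the start of genes, usually stay free of methylation. Genes of the germ line and 1 parental copy of imprinted genes are among the CpG-rich promoters that are methylated in body cells, and tumours often lose methylation over long CpG-poor domains while they gain it at some CpG-dense promoters.

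Sequences of 4 genes show the range of states in this library. Each run holds the 250 bases before a RefSeq gene start, 5′ to 3′ on the gene's strand, with every CpG in capitals. The letters are those of RefSeq on GRCh38.p14, and the positions are on GRCh37 (hg19), the build of the deposited table, found from the spacing of the CpGs. The first is the elongation factor gene EEF2, which all cells use, at chr19:3985462-3985711 on the minus strand, and the second is the germ cell gene DAZL, at chr3:16646931-16647180 on the minus strand. The third is the imprinted gene GNAS at chr20:57414553-57414802 on the plus strand. The last 2 precede separate starts of TET2, an enzyme that oxidises methylated cytosine, at chr4:106066782-106067031 and chr4:106067783-106068032 on the plus strand.
EEF2: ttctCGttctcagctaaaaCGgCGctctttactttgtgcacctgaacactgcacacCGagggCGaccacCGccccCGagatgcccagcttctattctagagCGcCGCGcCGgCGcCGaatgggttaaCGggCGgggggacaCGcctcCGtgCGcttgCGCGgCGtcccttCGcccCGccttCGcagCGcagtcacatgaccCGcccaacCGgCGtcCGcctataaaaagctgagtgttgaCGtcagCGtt
DAZL: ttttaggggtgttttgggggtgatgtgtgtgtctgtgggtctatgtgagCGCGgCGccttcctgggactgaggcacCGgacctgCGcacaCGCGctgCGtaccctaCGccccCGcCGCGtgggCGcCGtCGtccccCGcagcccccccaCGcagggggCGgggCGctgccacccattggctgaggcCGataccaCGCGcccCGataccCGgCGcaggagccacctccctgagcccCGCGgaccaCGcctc
GNAS: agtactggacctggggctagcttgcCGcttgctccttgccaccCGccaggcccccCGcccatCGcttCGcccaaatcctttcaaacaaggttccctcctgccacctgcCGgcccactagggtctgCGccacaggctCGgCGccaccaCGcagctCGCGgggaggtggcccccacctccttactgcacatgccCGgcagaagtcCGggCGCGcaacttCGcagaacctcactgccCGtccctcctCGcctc
TET2, upstream start: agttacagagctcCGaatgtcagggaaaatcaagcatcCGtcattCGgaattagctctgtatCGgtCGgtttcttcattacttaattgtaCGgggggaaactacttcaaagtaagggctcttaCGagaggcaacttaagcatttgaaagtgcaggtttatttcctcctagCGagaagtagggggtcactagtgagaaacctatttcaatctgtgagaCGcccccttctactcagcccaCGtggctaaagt
TET2, downstream start: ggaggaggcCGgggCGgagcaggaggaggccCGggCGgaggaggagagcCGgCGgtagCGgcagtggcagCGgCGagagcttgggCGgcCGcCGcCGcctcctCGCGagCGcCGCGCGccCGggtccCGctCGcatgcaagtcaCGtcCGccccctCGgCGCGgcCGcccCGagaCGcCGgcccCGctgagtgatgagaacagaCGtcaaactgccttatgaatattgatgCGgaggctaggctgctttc

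In the EEF2 run, all 31 CpGs were read and 4 of 1434 reads were methylated, a mean level of 0.372% with single CpGs from 0 to 8.00%. In the DAZL run, the 28 CpGs had a mean level of 88.6% and a median of 95.4%, and 1 CpG was as low as 25%. The GNAS promoter was picked as the imprinted one nearest 50% with at least 20 CpGs, so its intermediate mean was set by that choice. The 19 CpGs of its run had a mean of 58.0%, a lowest level of 44.1% and a highest of 84.6%. Upstream of the first TET2 start the 10 CpGs averaged 95.7% (562 of 580 reads), and upstream of the other start the 27 CpGs with enough reads averaged 1.31% (5 of 393 reads). The TET2 runs thus lay at opposite ends of the scale within 1 gene, and the upstream one had 10 CpGs against 34 in the downstream one.

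The library held 104702738 CpG reads, of which 102625418 fell on autosomes. Kept CpGs had a median of 29 reads, with the middle 50% between 18 and 47. Of the autosomal reads, 86.9% lay on the complementary strand. Where both strands had at least 10 reads (242135 CpGs), their levels differed by 8.74 percentage points on average, and 1.80% of these CpGs differed by over 50 points.

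Single CpGs were mostly at one end of the scale or the other. The mean level was 43.5% (SD over CpGs 42.1), the median was 31.2%, and read sampling alone gave an SD of 5.43. At or below 20% were 46.5% of CpGs (1145209), at or above 80% were 34.8% (857952), and 18.7% lay between. No methylated read was seen at 31.9% of CpGs, while 11.3% were methylated in every read. The middle of the scale, from 40% to 60%, held 6.08%.

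Level fell as depth rose over most of the range. CpGs with 10 to 14 reads had a mean level of 49.9%, and CpGs with 100 to under 200 reads one of 36.0%. The same direction held within CpG-sparse windows, from 62.6% at 10 to 19 reads to 46.4% at 100 or more. In CpG-dense windows the level fell from 22.9% at 10 to 19 reads to 13.3% at 50 to 99 reads and was 22.5% at 100 or more. The share of CpGs between 20% and 80% stayed from 17.6% to 18.9% up to 99 reads, then rose to 54.4% at 500 or more reads. The 3716 CpGs with over 500 reads took 5.90% of the reads. The part of copy number, of capture or of repeats in these shares was not tested.

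**Figure D1:**
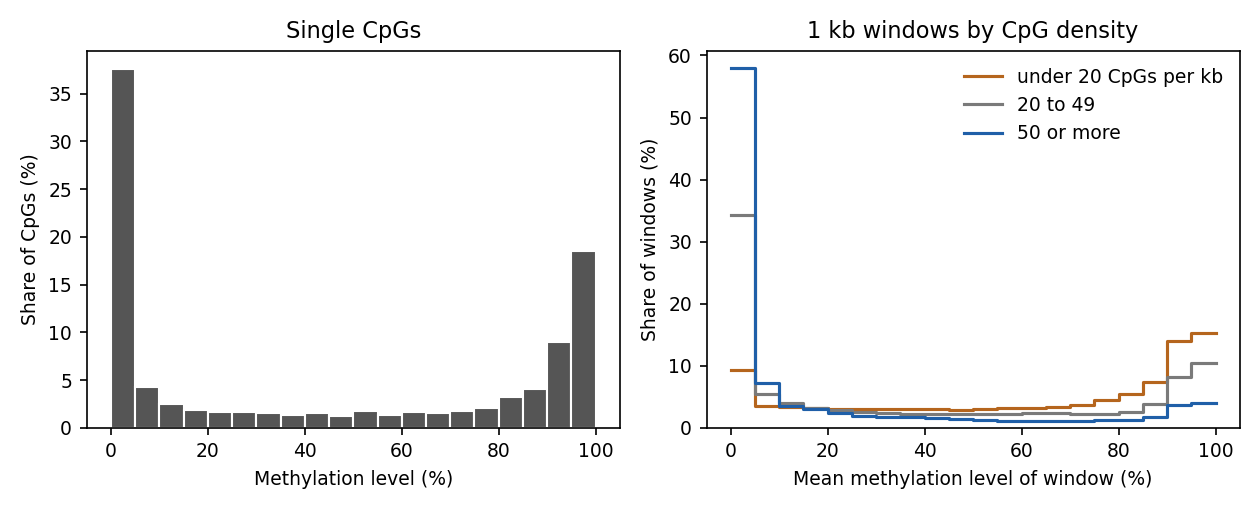
Left, share of the 2462465 autosomal CpGs (%) in steps of 5 percentage points of methylation level. Right, share of 1 kb windows (%) by their mean level, with 1 line for each class of CpG density. Single CpGs pile up at both ends, with 37.6% below 5% and 18.5% from 95% to 100%, and CpG-dense windows pile up at the low end.

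Methylation fell with CpG density. Windows of 1 kb were used where at least 5 CpGs had 10 reads, which left 125950 windows holding 80.2% of the kept CpGs. Density was the number of CpGs with any read in the window. CpGs that no read reached were not counted, so a window captured only in part can hold more CpGs than its class says. CpG-sparse windows (under 20 CpGs per kb, 90322 windows) averaged 60.1% (SD over windows 33.8), and 42.0% of them reached 80%. Windows of 20 to 49 CpGs per kb (24390) averaged 38.8% (SD 37.9). CpG-dense windows (50 or more per kb, 11238) averaged 19.99% (SD 30.9) with a median of 2.40%. Over the finer classes, the mean level fell from 61.5% at 5 to 9 CpGs per kb to 46.6% at 20 to 29 and 16.8% at 70 to 99. At 100 or more CpGs per kb it was 16.9%.

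Most CpG-dense windows were unmethylated, and a minority was methylated at 80% or above. At or below 20% were 8041 (71.6%), and at or above 80% were 1189 (10.6%, interval 10.02 to 11.2%). The methylated share was 11.4% at 50 to 69 CpGs per kb, 8.61% at 70 to 99 and 13.97% at 100 or more (44 of 315 windows, interval 10.3 to 18.3%). At least 5 of these 44 lie close together on chromosome 22, so they are not independent and that interval is too narrow. The same 5 count in the methylated share of chromosome 22 given below. Methylated dense windows formed 1058 separate stretches, and 962 of the 1189 windows had no methylated dense neighbour. How often dense windows of any level lie alone was not counted. Near the limit, 54 dense windows lay from 80% to 82% and 67 from 78% to 80%. A promoter could be placed in 3906 of the dense windows, of which 2.64% were methylated (interval 2.16 to 3.19%), against 14.8% (14.01 to 15.6%) of the 7332 others. The windows with a placed promoter had a median of 66 CpGs per kb and the others 62. Only 49.4% of promoters with at least 6 CpGs could be placed, so the other windows may hold gene starts too.

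The 5 densest methylated windows all lay close together on chromosome 22. They lay between chr22:20709001-20710000 and chr22:20714001-20715000, held 150 to 172 CpGs per kb, and had levels of 93.0%, 92.2%, 93.0%, 91.7% and 87.7%. Their median depth ran from 20 to 35 reads per CpG, and no promoter was placed there. Among the 21594 CpG-sparse windows with at least 10 CpGs, 700 had no methylated read at all. The 5 of these with the most reads were at 0 of 1751 reads (chr17:48171001-48172000, with the start of PDK2, a kinase that inhibits pyruvate dehydrogenase), 0 of 1671 (chr6:57182001-57183000, with the start of the DNA primase subunit gene PRIM2), 0 of 1530 (chr8:120844001-120845000), 0 of 1502 (chr6:31866001-31867000) and 0 of 1471 (chr6:4019001-4020000). Their upper bounds were 0.210% to 0.250% if every count is taken as independent, and wider otherwise. These windows held 12 to 19 CpGs per kb, under the limit of 20. Whether they lie at the edge of a CpG-dense stretch was not tested. A window counted as CpG-sparse could thus be as free of methylation as a CpG-dense promoter.

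**Figure D2:**
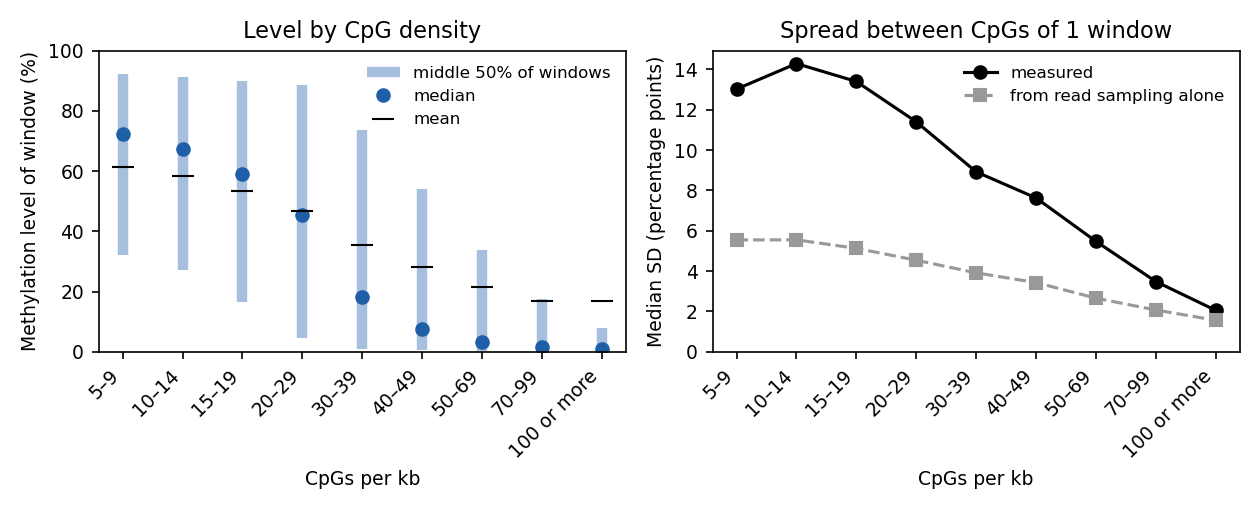
Left, methylation level of 1 kb windows (%) by CpGs per kb, with the median (point), the mean (dash) and the middle 50% of windows (bar). Right, median SD of CpG levels within a window (percentage points), as measured and as read sampling alone would give. The median falls from 72.5% to 0.773%, and the measured SD from 13.0 to 2.05.

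Neighbouring CpGs had similar levels in this library. The median SD within a window was 12.0 percentage points, where read sampling alone gave 5.09. It was 13.3 in CpG-sparse windows (5.50 from sampling) and 4.59 in dense windows (2.43 from sampling), most of which lay close to 0, where little spread is possible. Among windows with a mean between 20% and 80%, the median SD was 28.1 in sparse and 28.6 in dense windows. Consecutive CpGs 2 to 9 bp apart had levels with Pearson's r of 0.956 over 841803 pairs, and in 0.380% of these pairs 1 CpG was at or below 20% and the other at or above 80%. At 50 to 99 bp r was 0.728, at 500 to under 1000 bp it was 0.507, and at 1000 to under 5000 bp it was 0.328 with 15.8% of pairs opposite. Pairs at short distance share reads and lie in denser DNA, and r is given as a description of this library.

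Of the windows, 43858 (34.8%) had a mean level between 20% and 80%. In 5239 of them (11.9%) at least 25% of the CpGs were low and at least 25% high, so that the window was split, and in 5780 (13.2%) at least 80% of the CpGs were themselves between. Among the split windows 54.9% changed between low and high only once along the window, and 21.7% changed 3 times or more. The CpG-dense windows in the middle class were more often split (272 of 2008, 13.5%) than evenly intermediate (92, 4.58%), while in sparse windows the 2 kinds took 11.8% and 14.9%. These dense windows had a median of 61 CpGs per kb and the sparse ones 8. A rule on shares of CpGs is coarser over few CpGs, and the number of CpGs was not matched. An intermediate level can come from different cells or from different copies of a chromosome, which cannot be told apart in summed counts.

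Among the autosomes, chromosome 20 had the lowest level in CpG-sparse DNA. Its 3318 sparse windows averaged 49.99%, the next lowest chromosome (11) 56.6% and the highest (13) 63.3%, with a median over chromosomes of 60.7%. Sparse DNA was low in most of the chromosome rather than at 1 place. In 10 Mb segments with at least 50 sparse windows, its 7 segments were at 51.1%, 65.1%, 47.0%, 54.8%, 46.9%, 45.4% and 49.2% from its start to its end, where the median of all 279 segments was 61.6%. Of the 17 segments below 50%, 4 were on chromosome 20. Its median depth was 31 reads, within the 25 to 37 of all autosomes.

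CpG-dense DNA ordered the chromosomes in another way. Chromosome 20 was at 22.9% there, above the median of 20.4%. Chromosome 3 was lowest (12.4%) and chromosome 18 highest (27.1%). The share of dense windows that were methylated ran from 6.05% on chromosome 3 (34 of 562, interval 4.23 to 8.35%) and 6.40% on chromosome 1 to 17.4% on chromosome 22 (52 of 298, interval 13.3 to 22.2%). Over the 22 chromosomes, Pearson's r of the sparse level with the methylated share of dense windows was 0.06, and with median depth 0.11. The mean over windows of every density ran from 45.4% on chromosome 20 to 56.9% on chromosome 21. With at least 10 CpGs required per window, the lowest was chromosome 3 (32.2%), and the difference between the extremes grew from 11.4 to 19.8 percentage points.

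**Figure D3:**
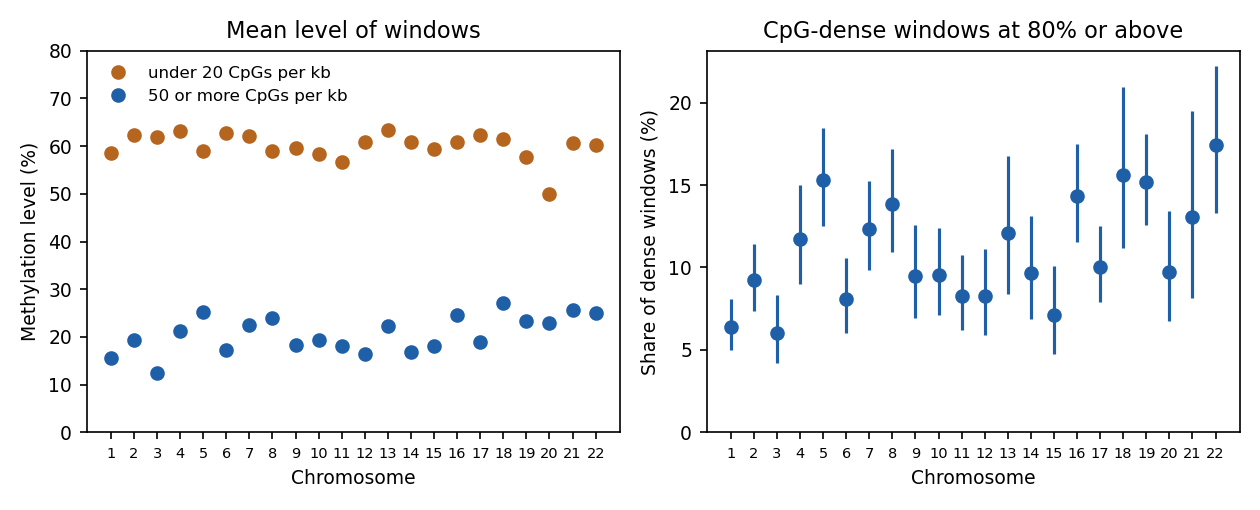
Left, mean methylation level (%) of CpG-sparse and CpG-dense windows of each autosome. Right, share of CpG-dense windows at or above 80% (%), with the 95% counting interval as a line. Chromosome 20 stands apart at 49.99% in sparse windows, and chromosomes 3 and 1 have the lowest shares of methylated dense windows.

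Levels of CpG-sparse DNA varied widely over 100 kb bins. The 6842 bins with at least 5 sparse windows averaged 60.03% (SD over bins 20.8) and ran from 4.07% to 97.1%. A bin held a median of 8 such windows, with a median SD of 27.0 between the windows of 1 bin. Each bin mean is thus uncertain, and the part of the spread over bins that comes from few windows was not separated. Below 60% were 3137 bins (45.8%), with 1 broad peak between 60% and 80% and no second one at the low end. By chromosome the low share ran from 36.8% on chromosome 14 to 61.0% on chromosome 20. Neighbouring bins had levels with r of 0.515 (4472 pairs), which fell to 0.327 at 200 kb, 0.111 at 500 kb and 0.066 at 1000 kb, again a description of 1 library.

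The longest run of adjacent low bins lay at chr19:50800001-52500000. Its 17 bins, 1700 kb with 205 sparse windows, averaged 35.8% and ran from 20.2% to 59.7%. The bin just before it was at 86.2% and the bin just after at 63.1%, after which levels from 34.8% to 72.4% followed. Of the 24 promoters of 20 genes placed in the run, 14 were at or below 20%, 10 lay between and 0 reached 80%, where over all placed promoters 80.4% were at or below 20% and 7.85% at or above 80%. Several in the run had few CpGs, such as KLK12 and SIGLEC10 with 6 each. Over all placed promoters with 6 to 9 CpGs, 34.3% were low and 406 of 1089 between. CpG content was not matched, and the starts of KLK7 overlap, as do those of SIGLEC9. Some of these genes, named after their values were seen, were unmethylated, among them the DNA polymerase subunit gene POLD1 (1.78%) and the nuclear receptor gene NR1H2 (0.410%), and so were the zinc finger genes ZNF175 (0.229%), ZNF613 (0.094%) and ZNF350 (0.061%). Promoters of kallikrein proteases were lightly to partly methylated, with KLK7 at 21.7%, 23.4% and 30.9% at its 3 starts, KLK12 at 24.4% and KLK9 at 4.62%. Those of Siglec receptors of immune cells ran from low to partly methylated, with SIGLEC9 at 5.97% and 8.95%, SIGLEC10 at 32.7% and SIGLEC12 at 45.7%. The highest promoters of the run were ACP4 at 78.9% on 6 CpGs, the overlapping LINC01872 (68.0%) and LOC107985327 (60.3%), and ASPDH at 48.8%.

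In bins where sparse DNA was low, CpG-dense windows were more often partly methylated. The 4286 dense windows in bins with too few sparse windows for a level are left out here, and 6.23% of them were methylated and 16.2% between. In bins below 40%, 48.6% of 975 dense windows lay between 20% and 80%, 44.3% were at or below 20% and 7.08% at or above 80% (interval 5.55 to 8.87%). In bins at 80% or above, 7.85% of 1172 dense windows lay between, 68.3% were unmethylated and 23.9% methylated (21.5 to 26.4%). The 2 classes of bins in the middle had between-shares of 21.4% and 12.0% and methylated shares of 9.50% and 13.4%, so both quantities were ordered by the level of the bin. Dense windows had a median of 62 to 64 CpGs per kb in all 4 classes, and windows of 1 bin are not independent. With windows of 70 or more CpGs per kb the between-share fell in the same order, from 44.3% to 6.01%, but the methylated share was no longer ordered, at 10.4%, 8.29%, 10.9% and 18.0%.

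**Figure D4:**
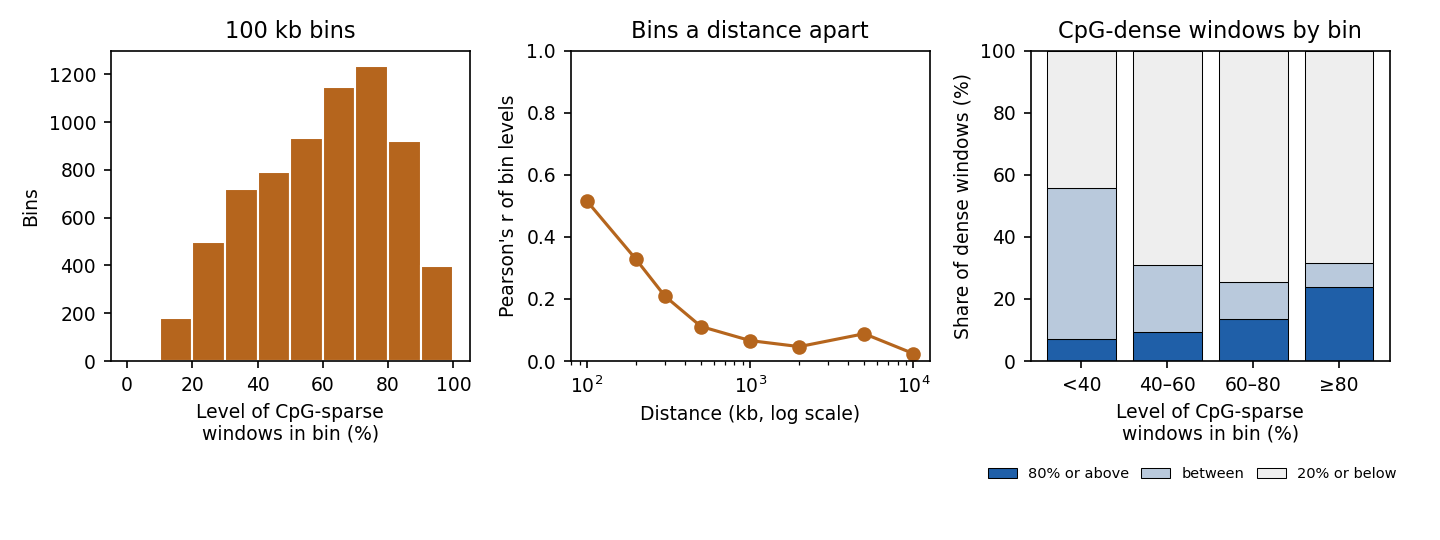
Left, number of 100 kb bins by the mean level of their CpG-sparse windows (%). Middle, Pearson's r of bin levels against the distance between bins (kb, log axis). Right, share of CpG-dense windows (%) at or above 80%, between, and at or below 20%, by the level of sparse DNA in the same bin. The between-share falls from 48.6% in bins below 40% to 7.85% in bins at 80% or above.

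Gene starts were found by matching the CpG spacing of RefSeq promoters (250 bases before to 50 after the start) to the positions in the table. Of 22316 autosomal promoters with at least 6 CpGs, 11016 found a single place, on 21 autosomes, and 10729 of 9261 genes had at least 5 CpGs of 10 reads. Of these, 842 (7.85%) were methylated at or above 80%, 8621 (80.4%) were at or below 20% and 1266 lay between. Nearby starts of 1 gene overlap, so the 10729 promoters lay at 8607 separate places. CpG content set the promoters apart as it did the windows, with 28.4% methylated at 6 to 9 CpGs per promoter, 17.3% at 10 to 14, 8.05% at 15 to 19, 3.61% at 20 to 29 and 2.25% at 30 or more. Promoters of long noncoding RNAs were methylated in 12.3% of 2066 cases and those of protein-coding genes in 6.78% of 8663, with CpG content not matched between them.

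The low and the high state differed in shape around the start. Unmethylated promoters (7484 genes, 1 start each) had a mean CpG level of 0.941% in the 100 bp before the start, which rose to 36.1% at 2000 bp upstream and to 47.4% at 2000 bp downstream. Methylated promoters (705 genes) were at 91.9% in the 100 bp before the start and fell on both sides, to 57.4% from 900 to 1000 bp upstream and 54.5% from 900 to 1000 bp downstream, and the level was 66.2% from 1900 to 2000 bp downstream. The level at the start was used to form these classes, so only the flanks beyond it add to the description. At 2000 bp upstream the 2 classes were at 36.1% and 61.5%.

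The lists of genes were read against the shares over all placed promoters, 80.4% low and 7.85% high. Housekeeping genes were low without exception among the placed ones (14 promoters of 13 genes, of 20 listed), with 110 methylated reads of 19885, or 0.553% (interval 0.455 to 0.666%). These promoters held 21 to 43 CpGs. Over all placed promoters, 89.3% were low at 20 to 29 CpGs and 94.2% at 30 or more, nearer to this list than 80.4%. EEF2 was at 0.281% over the full promoter, the peptidyl-prolyl isomerase gene PPIA at 0.223%, the succinate dehydrogenase gene SDHA at 0.339% and the transferrin receptor gene TFRC at 0.041%. The pooled value also bounds the share of CpG counts in these promoters where an unmethylated cytosine stayed unconverted. It does not bound the share of whole reads, since a read is counted at each of its CpGs.

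Germ line genes had the opposite state. Of 15 placed promoters of 11 genes (of 20 listed), 13 were at or above 80% and 0 at or below 20%. The list median was 91.0%, against a median of 0.430% over all placed promoters. Highest was ASZ1, a gene of the piRNA pathway, at 97.3% (906 of 932 reads), followed by the ribosomal protein gene RPL10L of the testis (97.0%), the synaptonemal complex gene SYCP3 (96.2%) and the kinase gene STK31 (95.8%). The Tudor domain genes TDRD1 and TDRD5 were at 91.0% and 94.1% and at 80.5% and 83.4%. BRDT, a testis bromodomain protein, was at 92.0% and 92.7%, DAZL at 90.1%, SYCP1 at 87.6% and DMRTB1 at 81.1%. The 2 promoters under 80% were MAEL (79.4%) and a second DAZL start (75.7%), and in both the CpGs were uneven, with SDs of 26.9 and 32.1 and medians of 90% and 92.1%.

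Tumour suppressor genes known to be silenced in liver cancer were unmethylated at 8 of 9 placed promoters (6 genes, of 22 listed), a share close to the 80.4% of all placed promoters. The exception was GSTP1, the glutathione S-transferase that detoxifies electrophiles, at 97.96% over 16 CpGs (236 of 240 reads, lowest CpG 90%). The cell cycle inhibitor gene CDKN2A was at 0.267% and 0.488% at its 2 starts, the Wnt pathway gene APC at 1.77% and 0.875%, BMP4 at 0.085% and 4.65%, and RASSF5 at 1.45%. GSTP1 was thus apart from the rest of its list by over 90 points, with no value between.

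Promoters of developmental regulators, which polycomb proteins often hold, were mostly partly methylated. Of 19 promoters of 12 genes (of 30 listed), 13 lay between 20% and 80%, 4 were low and 2 high, where 1266 of 10729 promoters in all lay between. The high ones were HOXA9 at 91.3% and a start of TBX5, a heart and limb regulator, at 88.8%, with another TBX5 start at 67.2%. PAX6, a regulator of eye and brain, had 5 starts at 20.02%, 25.2%, 63.4%, 0.388% and 34.7%. SIX6 was at 31.3%, GATA2 at 9.07% and SIM1 at 0.137%. In the PAX6 start at 25.2%, single CpGs ran from 0 to 100% (SD 27.1), so the intermediate mean held both low and high CpGs.

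Imprinted genes spread over the whole scale. Of 17 promoters of 7 genes (of 18 listed), 5 were high, 6 low and 6 between. The 5 starts of GNAS were at 57.6%, 75.5%, 9.59%, 1.5% and 52.5% in order along the chromosome. MEST had starts at 2.24% and 0.114% upstream and at 94.7%, 93.4% and 93.4% downstream, the last 2 on the same 9 CpGs. SNRPN was at 55.6% and 31.0%, GRB10 at 28.5% with a narrow spread over its 24 CpGs (SD 9.01, range 11.5 to 43.4%), and BLCAP at 0.065% and 0.089%. Past the middle of the scale, the GTPase gene DIRAS3 was at 94.8% and a start of INPP5F at 93.3%. A start where 1 of a pair of copies is methylated would lie near the middle, but Hep3B is aneuploid and copy number was not read here.

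**Figure D5:**
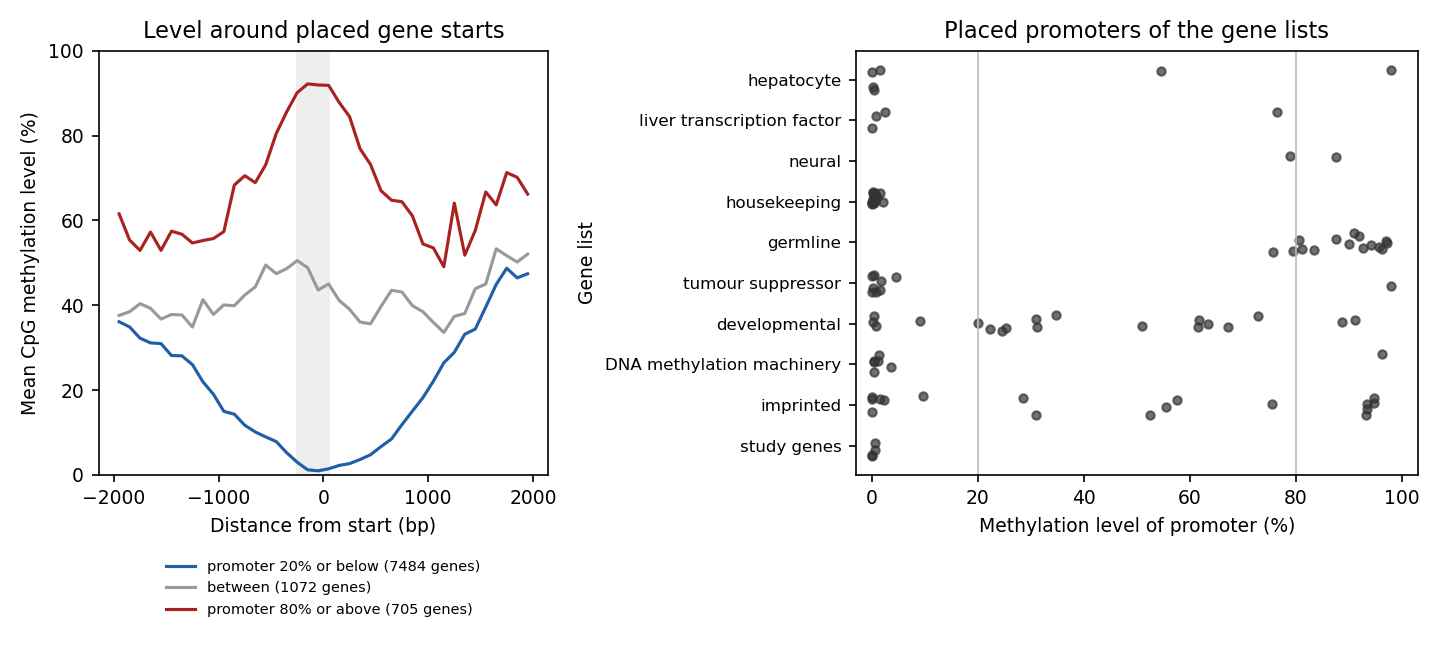
Left, mean CpG level (%) by distance from the start (bp) for genes whose promoter was low, between or high, with the promoter shaded. Right, level (%) of each placed promoter in the gene lists, 1 point each, with lines at 20% and 80%. All 14 housekeeping promoters sit below 2.20%, 13 of 15 germ line promoters sit at or above 80%, and 13 of 19 developmental promoters lie between.

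Genes that write, read or erase methylation were low at 6 of 7 placed promoters (5 genes, of 13 listed), again close to the 80.4% of all placed promoters. The methyltransferase gene DNMT3A was at 0.443% and 1.16%, the glycosylase genes MBD4 and TDG at 0.488% and 0.477%, and TET1 at 3.59%. TET2 was the exception, at 96.2% (605 of 624 reads) at its upstream start and 1.36% at its downstream start. Of 1203 genes with several placed starts, 86 (7.15%) had a high and a low one. Genes whose starts overlap and share CpGs are among the 1203, and the share over separate starts alone was not counted.

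Markers of the tissue gave little to check the label by, since few of their promoters could be placed. Of 20 hepatocyte genes 4 were placed. The transferrin gene TF was at 0.147%, the retinol-binding protein gene RBP4 at 0.368% and 0, the antitrypsin gene SERPINA1 at 1.56% and 54.5%, and the inhibitor chain gene ITIH1 at 97.9% on 7 CpGs. Of the liver transcription factors, GATA6 (2.48%), ONECUT2 (0.716%) and NR5A2 (0.082%) were low and the retinoid receptor gene RXRA was at 76.4% on 6 CpGs. The neural gene MAP2 was at 79.0% and 87.6%, and no leukocyte or endothelial marker was placed. Of 7 genes the study follows, 4 were placed, STAT6 not among them, and each of the 4 was low, as were 80.4% of all placed promoters. These were the folate enzyme gene MTHFD2 at 0.653% (7 of 1401 reads), the folate carrier gene SLC19A1 at 0.618% (6 of 986), SOX4 at 0 of 691 and the thymidylate synthase gene TYMS at 0 of 1160 reads.

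Beyond the lists, the 10 methylated promoters with the most CpGs were those of SPACA1 (96.1% over 40 CpGs), OR3A2 (88.6%), LINC01191 (85.9%), LOC105377614 (94.1%), SPESP1 and its readthrough SPESP1-NOX5 at the same place (87.6%), REPIN1-AS1 (96.7%), ZNF331 (96.7%), LOC105374629 (91.2%) and LOC124904891 (91.1%). SPACA1 and SPESP1 encode proteins of the sperm acrosome and equatorial segment, OR3A2 is an olfactory receptor and ZNF331 a zinc finger gene known to be imprinted. ZNF331 was at 95.8% to 96.7% at 4 placed starts, while over all zinc finger genes named ZNF 342 of 378 promoters were low and 11 high.

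Gene families were also counted, chosen after their values were seen and read against 80.4% low and 7.85% high over all placed promoters. Promoters with 20 to 29 CpGs were 89.3% low and those with 30 or more 94.2% low, and the CpG content of each family was not matched to this. Mitochondrial NADH dehydrogenase genes were low at 36 of 36 promoters and ribosomal protein genes at 57 of 59, with the testis gene RPL10L the single high one. Proteasome genes were low at 36 of 39, the high ones being PSMA8, the subunit of the testis form (86.3%), and 1 start of PSMG2 (92.6%) whose other start had 0 of 1105 methylated reads. Histone genes were low at 36 of 53 promoters and high at 12. The high ones were the testis histones H1-6 (95.6%), H2AC1 (93.5%) and H2BC1 (93.8%), the last 2 overlapping, and H2AC13, H2BC6, H2BC13, H2BC14, H3C6, H3C8, H4C6, H4C7 and H4C13, from 80.4% to 96.9%. Protocadherin genes, counted by name whether in a cluster or not, were high at 14 of 37 promoters, low at 13 and between at 10. HOX genes were high at 3 of 13, namely HOXA2 (95.3%), HOXA9 (91.3%) and HOXA10 (92.8%). Histone and protocadherin genes have near copies, and how reads that match several copies were handled was not given in the sources used here.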

How the data were processed

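Genomic DNA of parental Hep3B cells was sheared, captured with the TruSeq Methyl Capture EPIC probe set, bisulfite converted, amplified and sequenced on an Illumina NovaSeq. In the table the authors deposited, per the file headers, each strand of a CpG has counts of context and methylated reads and a methylation level as a fraction. The builds named in the submitters' processing notes are GRCh37 and hg19. The aligner, the caller and the removal of duplicates are not given in the sources used here.

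From these values, counts of both strands were summed (Python 3.11.15, pandas 2.3.3, numpy 2.4.6), and levels recomputed for CpGs with at least 10 reads. Windows of 1000 bp needed 5 such CpGs, and 100000 bp bins needed 5 windows under 20 CpGs per kb. Promoters were placed where the CpG spacing of the RefSeq sequence (at least 6 CpGs, or 8 with 90% matching) occurred at 1 position on its chromosome. Adjacent placements followed the RefSeq order in 99.9% of pairs, 80 mirror-image patterns were placed, and 20 promoters out of order were left out. Intervals used scipy 1.17.1. Named windows and genes were the extremes by CpGs or reads, the listed genes at or above 80%, and the up to 4 others per list with the most CpGs read. The GNAS sequence was that of the imprinted promoter nearest 50% among those with at least 20 CpGs. The CpGs, windows and lists were chosen with earlier results of these data known, and the order check, families, biotypes, TET2 sequences and promoter alternatives were added after values were seen. Scripts were tested on simulated data. Other libraries of the study were not used here, and no group comparison was made.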

Additional observations from a re-analysis of the deposited data

How the results depend on the processing

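No paired analysis was possible because 1 library was used. Of 72 values recomputed for 10 results under other choices, 23 stayed inside the counting interval of the value reported and 49 did not. The intervals are narrow, since they hold counting error only. With a minimum of 5 reads, the mean CpG level was 44.6%, the low and high shares of CpGs 45.5% and 35.9%, the sparse and dense window levels 61.2% and 20.2%, the median SD within windows 12.8, and the share of bins below 60% 43.1%. With a minimum of 20 reads, these were 41.2%, 48.9%, 32.6%, 57.2%, 18.8%, 10.5 and 50.6%, with 9.97% of dense windows methylated, 11.2 points between the highest and lowest chromosome and 6.72% of placed promoters methylated. On the complementary strand alone, the mean was 43.2%, the low share 47.2%, the sparse and dense levels 60.2% and 19.8% and the SD 11.6. Without CpGs over 500 reads the sparse level was 60.1%.

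Weighting by reads gave a mean of 41.1%. A low class up to 10% held 42.2% of CpGs and a high class from 90% held 27.6%. Windows of 2 kb gave 59.9% and 19.8% for sparse and dense levels, 8.05% of dense windows methylated and an SD of 14.3. Windows shifted by 500 bp gave 60.01% and 20.4%, with 11.2 points between chromosomes. At least 10 CpGs per window gave 54.5% and 19.9%, an SD of 10.7, a chromosome difference of 19.8 points and 48.9% of bins below 60%. Dense windows from 40 CpGs per kb averaged 22.8% with 12.5% methylated, and from 70 averaged 16.8% with 9.05%. Sparse windows under 10 per kb averaged 61.5%. Calling windows methylated from 70% gave 13.0% of dense windows, and from 90% gave 7.66%. Subtracting sampling variance left an SD of 10.04. In sparse windows alone the chromosomes differed by 13.3 points. Below 50% lay 32.2% of bins, and below 70% lay 62.6%.

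Chromosome 20 had the lowest sparse level under all 8 ways of choosing CpGs and windows, but the lowest level of all windows under 6. With 20 reads that was chromosome 9 (42.7%), and with 10 CpGs per window chromosome 3 (32.2%). The promoter alternatives were all chosen after seeing the data, and those other than 20 reads stayed within the interval. A CpG with 10 reads has a wide interval, so single CpGs are less certain than windows.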
